A study of Saccharomyces cerevisiae with 4 samples.

Results

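The comparison set yeast cells that lived on Ssa3 as their sole cytosolic Hsp70 of the Ssa family beside cells that lived on Ssa1. Both strains were G402 derivatives (MATa, with ura3, trp1, lys2, leu2 and his3 markers and the alleles kar1-1, SUQ5 and ade2-1) in which all SSA genes were disrupted, as ssa1::KanMX, ssa2::HIS3, ssa3::TRP1 and ssa4::URA3-1f. Each carried a low-copy LEU2 plasmid with a single SSA gene behind the SSA2 promoter, and both were [psi-]. Strains with Ssa2 or Ssa4 as sole Ssa, built alike, completed the series of 4 arrays. RNA of several extractions was pooled and hybridized to 1 array per strain, so that no value had a replicate, no test was made and every ratio is a description of these pools. The deposited description and the study's methods give different numbers of pooled extractions, and the labels call the cultures exponentially growing where the methods speak of overnight growth. Of 5794 features, 5779 had a value on both arrays, and the ratio of the Ssa3 array to the Ssa1 array was formed for each. Names were given by matching the values of all 4 arrays to the study's gene table, which named 947 features (16.3%), nearly all of them listed there because some strain was past 2-fold. The members described are the 238 named features above a ratio of 2 or below 0.5.

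Cytosolic Hsp70 proteins bind hydrophobic stretches of other proteins in cycles of ATP hydrolysis, with J-domain proteins and nucleotide exchange factors as partners. Yeast cells make Ssa1 and Ssa2 at all times, whereas SSA3 and SSA4 are induced by heat and other stress, and at least 1 Ssa protein is needed for growth. In these strains the SSA2 promoter drove either gene, so the comparison asked what differs between cells when the protein, not its heat-induced expression, is exchanged. The feature of SSA2, a gene disrupted in both strains, read 1.21 on the Ssa3 array, 2505 on the Ssa2 array and 2.38 on the Ssa4 array, against 9.01 on the Ssa1 array. Of the 4, the strain that carries SSA2 alone gave a clear signal, and no ratio is read from this feature. The features of SSA1, SSA3, SSA4 and HSP104 were not analysed here, so the transcript level of the plasmid-borne gene was not checked in either strain. By Western blot the study found every Ssa protein well expressed and Hsp104 little changed, perhaps slightly higher with Ssa3.

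The Ssa3 array was higher than the Ssa1 array by more than 2-fold at 129 features (2.23% of 5779) and below 0.5 of it at 112 (1.94%). The deposited values are normalized intensities on a linear scale with a median of 200.4 on the Ssa3 array and 201.4 on the Ssa1 array, and the median ratio over all features was 1.03. The central 50% of the features lay between ratios of 0.851 and 1.23. Of the higher features, 126 had a name, 73 of them with at least 100 on both arrays, and their ratios ran from 2.00 to 13.3 with a median of 2.41. All 112 lower features had a name, 49 of them with at least 100 on both arrays, and their ratios ran from 0.0790 to 0.499 with a median of 0.435. Over features of at least 100 on both arrays, 1.98% were above 2-fold and 1.31% below 0.5 of 3735. MCH2 lay just inside the upper limit at 2.00461 and YIL046W just outside it at 1.99931, and at the lower limit PRM7 lay inside at 0.49924 and RIB2 outside at 0.50157. Since signal can vary over a slide, the median log2 ratio of neighbouring features is given beside many members. The feature names imply a print grid of 32 blocks that the deposited data do not state, and the neighbours of a feature are those 1, 14 and 15 positions away in its block.

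**Figure D1:**
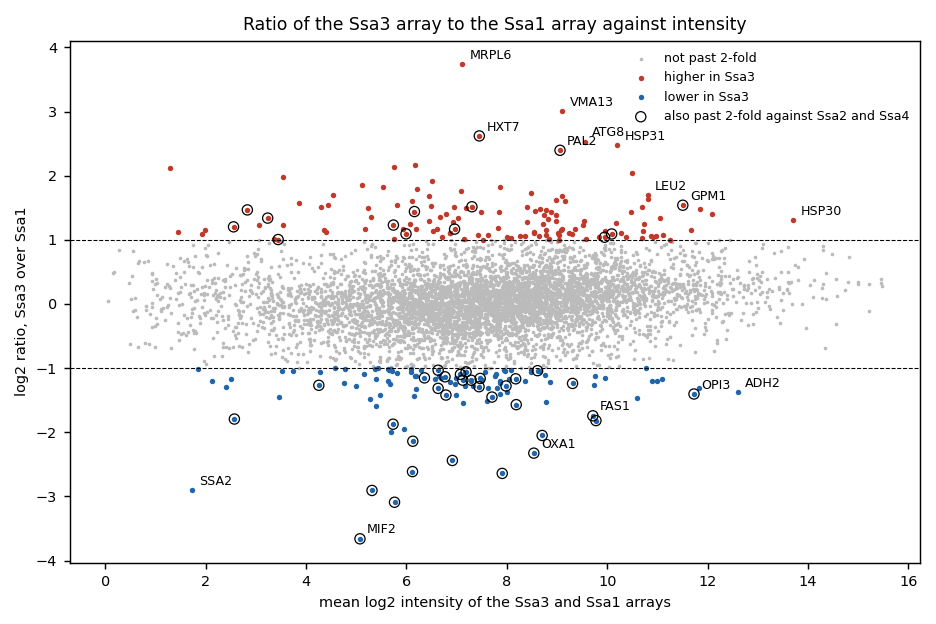
Log2 ratio of the Ssa3 array to the Ssa1 array for 5779 features (vertical axis) against the mean log2 intensity of both arrays (horizontal axis). Red points are above 2-fold and blue points below 0.5 of the Ssa1 array, dashed lines mark these limits, and black rings mark features that were also past 2-fold against the Ssa2 and Ssa4 arrays.

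The higher members held more genes of the mitochondrial translation apparatus, of iron, copper and sulfur metabolism and of the handling of oxidants and aldehydes, and the lower members more genes of ethanol and acetate use, meiosis, the cell wall and the chromosome cycle. Genes of sugar uptake and glycolysis lay on both sides, with 9 of 23 named genes above 2-fold and 4 below 0.5. These counts are set against a background in which 13.3% of all named features were above 2-fold and 11.8% below 0.5. For nearly all features a name came with a change against this same Ssa1 array in some strain. A low or high Ssa1 value could thus both bring a name and shift the ratio. The lists hold textbook members of each function, and only their named features could be counted. Lists overlap, so that COX17, GSH1, MXR1, CCS1 and PDC6, among others, are counted in each list they belong to. None of these counts was tested. With the neighbour median of each feature subtracted, 3 of the 8 higher genes of mitochondrial ribosomal proteins stayed above 2-fold. So did 5 of 10 of iron and copper, 6 of 9 of sulfur, 10 of 15 of oxidants and aldehydes and 8 of 9 of sugar uptake and glycolysis. Genes that passed a limit only after subtraction are not in these counts. On the lower side 7 of 9 genes of ethanol and acetate use, 3 of 9 of meiosis, 4 of 10 of the cell wall and 4 of 11 of the chromosome cycle stayed below 0.5. Of the 4 lower genes of sugar uptake and glycolysis, 0 did.

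**Figure D2:**
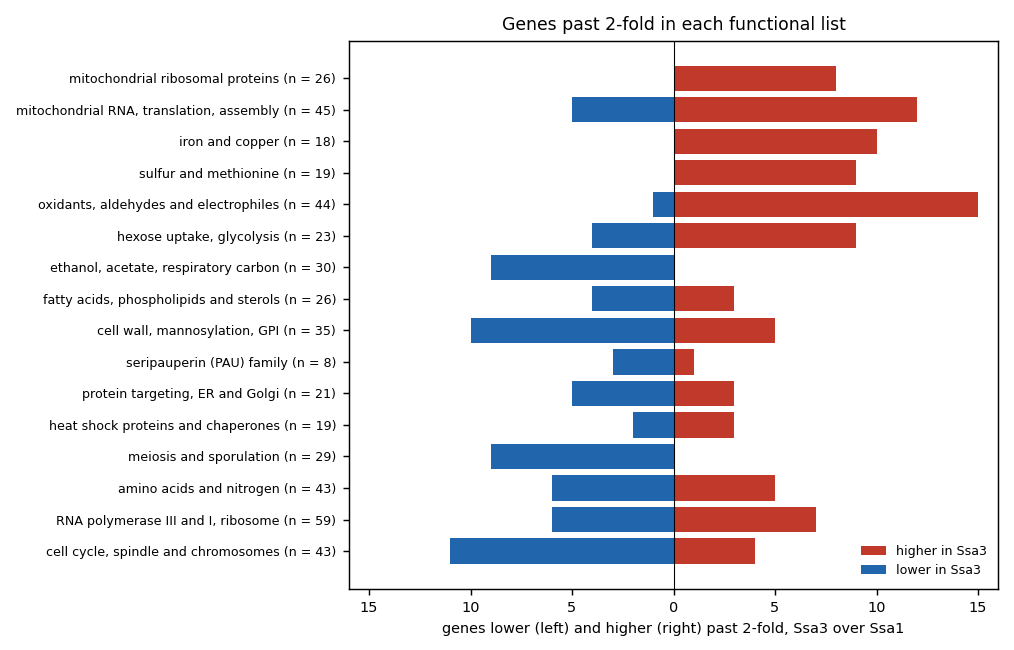
Number of named genes above 2-fold (red, right) and below 0.5 (blue, left) on the Ssa3 array against the Ssa1 array in 16 functional lists, with the number of named features of each list in parentheses. Mitochondrial ribosomal proteins, iron and copper, and sulfur and methionine had 0 lower genes and oxidants had 1, while ethanol and acetate use and meiosis held 9 lower genes each and 0 higher ones.

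Mitochondrial ribosomes make the few proteins that mitochondrial DNA encodes, and most of their protein subunits come from nuclear genes. Of 75 genes of mitochondrial ribosomal proteins on the list, 26 had a name. Of these 26, 8 were above 2-fold and 0 below 0.5. Their lowest ratio was 1.02 and their median 1.80, against a median of 1.02 over all named features. MRP1 (YDR347W), a protein of the small subunit, read 728 on the Ssa3 array, 488 on Ssa2 and 279 on Ssa4, against 265 on Ssa1. The Ssa3 value was the highest of the 4 and 2.75 times that of Ssa1, which the Ssa4 array all but equalled. MRPS16, another small subunit protein, read 654 on the Ssa3 array, 538 on Ssa2 and 641 on Ssa4, against 293 on Ssa1. MRPL20, of the large subunit, read 759.6 on the Ssa3 array, 604 on Ssa2 and 702 on Ssa4, against 361 on Ssa1. MRPL40, also of the large subunit, read 477 on the Ssa3 array, 297 on Ssa2 and 352 on Ssa4, against 229 on Ssa1. In both the Ssa2 and Ssa4 values lay between those of Ssa3 and Ssa1, at ratios of 2.11 and 2.08. MRPS12 (2.07), RSM25 (2.03) and MRPL19 (2.02) were near the limit. MRPL6 had the highest ratio of all members, 13.3, with 506 on the Ssa3 array, 373 on Ssa2 and 455 on Ssa4, against 38.0 on Ssa1. The Ssa1 value alone was low there. The higher genes of the list had neighbours with a median log2 ratio of 0.19, and after subtraction 3 of the 8 (MRPL6, MRP1 and RSM25) stayed above 2-fold, whereas MRPS16 (1.97), MRPL20 (1.60), MRPL40 (1.86), MRPS12 (1.80) and MRPL19 (1.54) did not.

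A second mitochondrial group, of genes for RNA processing, translation factors and assembly of the respiratory complexes, had 12 of 45 named genes above 2-fold and 5 below 0.5, with a median ratio of 1.65. MSS116 (YDR194C), a DEAD-box helicase for splicing of mitochondrial introns, read 889 on the Ssa3 array, 1641 on Ssa2 and 1389.5 on Ssa4, against 288 on Ssa1. Its ratio was 3.09, and the Ssa2 and Ssa4 arrays were higher still, while the study's RT-qPCR put MSS116 level with Ssa1 in Ssa3 cells. COX17, which hands copper to cytochrome oxidase assembly, read 2783 on the Ssa3 array, 2606 on Ssa2 and 3233 on Ssa4, against 976 on Ssa1. CYC7, the hypoxic form of cytochrome c, read 568 on the Ssa3 array, 608 on Ssa2 and 1636 on Ssa4, against 200.1 on Ssa1. For these the Ssa1 array was the lowest of the 4. CBP3, an assembly factor of the cytochrome bc1 complex, was highest in Ssa3 cells, with 378 on the Ssa3 array, 153 on Ssa2 and 314 on Ssa4, against 139 on Ssa1. The heme lyase gene CYC3 (2.06), the ATP synthase subunit gene ATP14 (2.21), the import gene TIM13 (2.14) and the aspartyl-tRNA synthetase gene MSD1 (2.08) were also higher with at least 100 on both arrays. MRS1, CBP1, COX10 and BI3 were higher with less than 100 on at least 1 array, at ratios of 4.40, 3.94, 2.81 and 2.19.

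On the lower side of this group stood OXA1 (YER154W), the insertase that places mitochondrially and nuclear encoded proteins into the inner membrane. OXA1 read 166 on the Ssa3 array, 907 on Ssa2 and 958 on Ssa4, against 832 on Ssa1. The ratio of 0.199 was the lowest among all members of at least 100 on both arrays, and the Ssa3 value stood apart from the other 3, which lay between 832 and 958. The neighbours of OXA1 on the grid were also lower, with a median log2 ratio of -1.06, and with that median subtracted the ratio was 0.415. MDM36, a factor of mitochondrial morphology, read 130.4 on the Ssa3 array, 206 on Ssa2 and 152 on Ssa4, against 272 on Ssa1, with neighbours at -0.54. ERV1, MDJ2 and FMT1 were below 0.5 at less than 100 on the Ssa3 array. After subtraction 8 of the 12 higher genes and 2 of the 5 lower ones, OXA1 and MDJ2, stayed past 2-fold.

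Of 18 named genes of iron and copper uptake and use, 10 were above 2-fold and 0 below 0.5, with a median ratio of 2.04. ARN1 (YHL040C), a transporter of iron siderophores, read 1165 on the Ssa3 array, 1143 on Ssa2 and 1362 on Ssa4, against 477 on Ssa1. TIS11, an RNA-binding protein that acts when iron is short, read 804 on the Ssa3 array, 1182 on Ssa2 and 395 on Ssa4, against 363 on Ssa1. FRE7, a metal reductase of the plasma membrane, read 2629 on the Ssa3 array, 1542 on Ssa2 and 705 on Ssa4, against 1105 on Ssa1. FRE7 was highest on the Ssa3 array and lowest on the Ssa4 array, while ARN1 was nearly as high and TIS11 higher in Ssa2 cells. CTH1, the relative of TIS11, had a ratio of 2.12, the iron-sulfur cluster genes DRE2 and ISU2 2.18 and 2.05, and CCS1, the copper chaperone of superoxide dismutase, 2.03. The multicopper oxidase gene FET3 and the mitochondrial metal transporter gene MMT2 had ratios of 2.24 and 2.15, each with less than 100 on the Ssa1 array. Neighbours of the higher genes had a median log2 ratio of 0.23, and 5 of the 10 (COX17, ARN1, FRE7, DRE2 and ISU2) stayed above 2-fold after subtraction.

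Sulfur assimilation and methionine genes had 9 of 19 named members above 2-fold and 0 below 0.5, with a median ratio of 1.82. MET17 (YLR303W), which builds homocysteine from sulfide, read 759.9 on the Ssa3 array, 1150.3 on Ssa2 and 342 on Ssa4, against 352 on Ssa1. The Ssa4 value was at that of Ssa1, and Ssa2 was the highest. GSH1, the first enzyme of glutathione synthesis, read 791 on the Ssa3 array, 632 on Ssa2 and 1434 on Ssa4, against 321 on Ssa1. PDC6, the pyruvate decarboxylase known to be induced in low sulfur, read 1129 on the Ssa3 array, 548 on Ssa2 and 793 on Ssa4, against 480.5 on Ssa1, highest in Ssa3 cells. MXR1, which reduces oxidized methionine, read 915 on the Ssa3 array, 640.2 on Ssa2 and 1768 on Ssa4, against 431 on Ssa1. JLP1, a dioxygenase that frees sulfur from sulfonates, had a ratio of 2.10. The transporter genes SUL2, OPT1 and MUP3 and the regulator gene MET32 had ratios of 3.22, 2.85, 2.06 and 2.98 with less than 100 on the Ssa1 array. After subtraction 6 of the 9 stayed above 2-fold, MET17, MXR1 and JLP1 not among them.

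Enzymes that act on oxidants, aldehydes and electrophiles made up the longest higher group, 15 of 44 named genes against 1 lower, with a median ratio of 1.61. HSP31 (YDR533C), a glyoxalase and chaperone of the DJ-1 family, read 2765 on the Ssa3 array, 3304 on Ssa2 and 7010.1 on Ssa4, against 498 on Ssa1. OYE3, an NADPH oxidoreductase of the old yellow enzyme family, read 654 on the Ssa3 array, 654 on Ssa2 and 2458 on Ssa4, against 197 on Ssa1. In both the Ssa1 array was the lowest and the Ssa4 array the highest. AAD14, an aryl-alcohol dehydrogenase of a family with close relatives on the array, read 294 on the Ssa3 array, 119 on Ssa2 and 233 on Ssa4, against 109 on Ssa1. BDH2, next to the butanediol dehydrogenase gene BDH1, read 2326 on the Ssa3 array, 676 on Ssa2 and 1448 on Ssa4, against 864 on Ssa1, highest in Ssa3 cells. BDH1 itself (2.09), GRE2 (2.62), YML131W (2.37), ALD3 (2.20) and YNL134C (2.20) were higher at 100 or more on both arrays. GTT2, AAD4 and CIN5 were higher at less than 100 on the Ssa1 array. DOT5, a nuclear thiol peroxidase, was the exception, at 96.2 on the Ssa3 array, 656 on Ssa2 and 477 on Ssa4, against 600.2 on Ssa1. It stood apart below the other arrays at a ratio of 0.160, with neighbours at a median log2 ratio of -1.06. Of the 15 higher genes, 10 stayed above 2-fold after subtraction, as did DOT5 below 0.5.

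Genes of sugar uptake and glycolysis split, 9 of 23 above 2-fold and 4 below 0.5. GPM1 (YKL152C), phosphoglycerate mutase, was the brightest gene that stood apart on the Ssa3 array, with 4959 on the Ssa3 array, 916 on Ssa2 and 772 on Ssa4, against 1706 on Ssa1. Its ratio was 2.91, and the Ssa2 and Ssa4 arrays lay below Ssa1. Neighbouring features of GPM1 had a median log2 ratio of 0.02. HXT7, a high-affinity hexose transporter whose sequence is nearly that of HXT6, so that a probe may read both, gave 434 on the Ssa3 array, 194 on Ssa2 and 107 on Ssa4, against 70.6 on Ssa1. That ratio of 6.15 stood apart too, with neighbours at 0.98 and 3.12 after their subtraction. IMA1, an isomaltase, stood apart near the floor with 8.91 on the Ssa3 array, 3.36 on Ssa2 and 2.26 on Ssa4, against 3.87 on Ssa1. HXT1, ERR3, MTH1, HOR2 and RGS2 were higher, each with less than 100 on the Ssa1 array. Lower was HXT2, a transporter of moderate affinity, with 151 on the Ssa3 array, 443 on Ssa2 and 239 on Ssa4, against 357 on Ssa1. Hexokinase 2 (HXK2) read 1233 on the Ssa3 array, 3389 on Ssa2 and 2099 on Ssa4, against 2473 on Ssa1. HXK2 was at the limit with 0.499. TPK3 and the hexose transporter gene HXT3 were below 0.5 at low intensity. HXT3 read 3.19 on the Ssa3 array, 9.33 on Ssa2 and 17.2 on Ssa4, against 11.1 on Ssa1. After subtraction 8 of the 9 higher genes stayed above 2-fold and 0 of the 4 lower ones below 0.5.

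Of 44 genes on the list for ethanol, acetate, fatty acid and respiratory carbon use, 30 had a name. Of these 30, 0 were above 2-fold and 9 below 0.5, with a highest ratio of 0.991 and a median of 0.703. ADH2 (YMR303C), the glucose-repressed dehydrogenase that oxidizes ethanol, read 3867 on the Ssa3 array, 2148 on Ssa2 and 384 on Ssa4, against 10062 on Ssa1. Here the Ssa1 array was the highest and Ssa4 the lowest, so that Ssa3, at 0.384 of Ssa1, was second of the 4. ADY2, an acetate transporter, read 2299 on the Ssa3 array, 3027 on Ssa2 and 703 on Ssa4, against 5699.7 on Ssa1. RGI2, a gene of respiratory growth, read 1347 on the Ssa3 array, 1788 on Ssa2 and 607 on Ssa4, against 3101 on Ssa1. FAA2, an acyl-CoA synthetase for medium-chain fatty acids, read 551 on the Ssa3 array, 707 on Ssa2 and 699.6 on Ssa4, against 1329 on Ssa1. In ADY2 and RGI2 the Ssa3 value lay below those of Ssa1 and Ssa2 and above that of Ssa4. ATO3, MAE1 (malic enzyme) and PDA1 (pyruvate dehydrogenase) had ratios of 0.445, 0.461 and 0.460. FDH1, a formate dehydrogenase, stood apart with 14.5 on the Ssa3 array, 31.9 on Ssa2 and 46.1 on Ssa4, against 109 on Ssa1, and DAL7 was also lower at less than 100 on the Ssa3 array. The lower members of this list had neighbours with a median log2 ratio of -0.02, and 7 of the 9 stayed below 0.5 after subtraction, with no neighbour value for FDH1.

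Among lipid genes 4 of 26 were below 0.5 and 3 above 2-fold. FAS1 (YKL182W), the beta subunit of fatty acid synthase, read 459 on the Ssa3 array, 1202 on Ssa2 and 968 on Ssa4, against 1537 on Ssa1. OPI3, a phospholipid methyltransferase of phosphatidylcholine synthesis, read 2087 on the Ssa3 array, 6446 on Ssa2 and 5215 on Ssa4, against 5521 on Ssa1. Both stood apart below the other 3 arrays, at ratios of 0.299 and 0.378, and both had low neighbours, at median log2 ratios of -1.06 and -0.84. INO1, the first step of inositol synthesis, read 172 on the Ssa3 array, 266 on Ssa2 and 109.6 on Ssa4, against 357 on Ssa1, with neighbours at -0.10. PIK1, a phosphatidylinositol kinase, read 18.6 on the Ssa3 array, 143 on Ssa2 and 102 on Ssa4, against 158 on Ssa1, apart from the other arrays. LDH1, a hydrolase of lipid droplets, was higher with 773 on the Ssa3 array, 824 on Ssa2 and 1137 on Ssa4, against 287 on Ssa1. The steryl ester hydrolase gene TGL1 read 442 on the Ssa3 array, 468 on Ssa2 and 476 on Ssa4, against 211 on Ssa1. Neither was the highest in Ssa3 cells. OPI1, the repressor of phospholipid genes, was above 2-fold with 12.8 on the Ssa3 array and 5.42 on the Ssa1 array. After subtraction PIK1 and LDH1 alone of the 7 stayed past 2-fold.

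The cell wall and GPI anchor list had 10 of 35 named genes below 0.5 and 5 above 2-fold. PMT6 (YGR199W), a protein mannosyltransferase of the endoplasmic reticulum, read 413 on the Ssa3 array, 1061 on Ssa2 and 864 on Ssa4, against 975 on Ssa1. The Ssa3 value was below 0.5 of each other array, with neighbours at -0.34. HVG1, a relative of the Golgi nucleotide-sugar transporter gene VRG4, read 258 on the Ssa3 array, 200.3 on Ssa2 and 225 on Ssa4, against 745 on Ssa1, a case in which the Ssa1 array alone was high. ZPS1, a zinc-regulated wall protein, read 1258 on the Ssa3 array, 6161 on Ssa2 and 615 on Ssa4, against 2900.0 on Ssa1. GPI8, the catalytic subunit of GPI transamidase, read 28.1 on the Ssa3 array, 192 on Ssa2 and 166 on Ssa4, against 172 on Ssa1, beside neighbours at -1.98. The study's RT-qPCR put GPI8 within 2-fold of Ssa1 in Ssa3 cells. UTR2, CDA1, CDA2, GWT1, BSC1 and LRG1 were below 0.5 with less than 100 on the Ssa3 array. Higher was HPF1, a mannoprotein, with 623 on the Ssa3 array, 616 on Ssa2 and 710.5 on Ssa4, against 228 on Ssa1. DSE2, a glucanase made in daughter cells, read 984 on the Ssa3 array, 525 on Ssa2 and 688 on Ssa4, against 439 on Ssa1, highest in Ssa3 cells. YNL190W, a hydrophilin of the wall, read 1590.2 on the Ssa3 array, 537 on Ssa2 and 539 on Ssa4, against 746 on Ssa1, and stood apart above all arrays. CSS1 and the chitinase gene CTS1 were higher at low intensity. CTS1 read 14.97 on the Ssa3 array, 4.91 on Ssa2 and 3.26 on Ssa4, against 5.92 on Ssa1. Neighbours of the lower genes of the list had a median log2 ratio of -0.37, and after subtraction 4 of the 10 (UTR2, CDA2, HVG1 and BSC1) stayed below 0.5 and 3 of the 5 above 2-fold.

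Seripauperin genes, a large subtelomeric family of similar sequence that probes may not tell apart, had 8 named members, 3 below 0.5 and 1 above 2-fold. PAU20 read 159.5 on the Ssa3 array, 235 on Ssa2 and 249 on Ssa4, against 412 on Ssa1. PAU24 read 668 on the Ssa3 array, 885 on Ssa2 and 1211 on Ssa4, against 1483 on Ssa1, and in both the Ssa1 array was the highest. PAU13 was lower with 76.1 on the Ssa3 array. PAU16 went the other way, with 986 on the Ssa3 array, 1012 on Ssa2 and 1402 on Ssa4, against 306 on Ssa1, but its neighbours had a median log2 ratio of 1.84, and after subtraction its ratio was 0.900. None of the lower members stayed below 0.5, with no neighbour value for PAU20.

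In the list of protein targeting, the endoplasmic reticulum and the Golgi, 5 of 21 were below 0.5, all with at least 100 on both arrays, and 3 were above 2-fold, none of them with 100 on both. SYS1 (YJL004C) and ARL3 act together in Golgi membrane traffic. SYS1 read 126 on the Ssa3 array, 351 on Ssa2 and 323 on Ssa4, against 345 on Ssa1. ARL3 read 101 on the Ssa3 array, 232 on Ssa2 and 253 on Ssa4, against 210.4 on Ssa1. SEC63, a J-domain subunit of the translocon and a partner of the lumenal Hsp70 Kar2, read 193 on the Ssa3 array, 642 on Ssa2 and 419 on Ssa4, against 433 on Ssa1. All 3 were below 0.5 of each other array. KEX2, the Golgi protease that cleaves the alpha-factor precursor, read 296 on the Ssa3 array, 765 on Ssa2 and 523 on Ssa4, against 637 on Ssa1. SRP72, of the signal recognition particle, had a ratio of 0.492. The lower members of the list had neighbours with a median log2 ratio of -0.50, and 1 of the 5, SYS1, stayed below 0.5 after subtraction. Higher were BET5, USA1 and STE13, of which 0 stayed above 2-fold after subtraction. USA1, which had no neighbour value, stood apart near the floor with 11.8 on the Ssa3 array, 5.45 on Ssa2 and 5.84 on Ssa4, against 4.28 on Ssa1.

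Of 19 named heat shock and chaperone genes 3 were above 2-fold, and 2 below 0.5 including the disrupted SSA2. HSP31 is given above. HSP30 (YCR021C), a stress protein of the plasma membrane, was the brightest member, with 21057 on the Ssa3 array, 10989.6 on Ssa2 and 26526 on Ssa4, against 8503 on Ssa1. SSE1, an Hsp110 protein that exchanges nucleotide on Ssa proteins, read 3204 on the Ssa3 array, 1729.5 on Ssa2 and 3002 on Ssa4, against 1514 on Ssa1. SSE1 and HSP30 were high in Ssa3 and Ssa4 cells and lower in Ssa1 and Ssa2 cells, with SSE1 at a ratio of 2.12, neighbours at 0.34 and 1.67 after subtraction. MDJ2, a J-domain protein of mitochondria, had a ratio of 0.435 at 32.7 on the Ssa3 array.

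Meiosis and sporulation genes had 0 of 29 named members above 2-fold and 9 below 0.5, with a median ratio of 0.729. They were dim, and 2 had at least 100 on both arrays, the acetate transporter gene ADY2 and ADY3. ADY3, a component of the prospore membrane front, read 125 on the Ssa3 array, 205 on Ssa2 and 315 on Ssa4, against 309.5 on Ssa1. REC104, which is needed for meiotic double-strand breaks, read 67.5 on the Ssa3 array, 169 on Ssa2 and 175 on Ssa4, against 181 on Ssa1, and stood apart. IME1, the activator of the meiotic programme, had 92.4 on Ssa3 and 224 on Ssa1 with neighbours at -0.89, and SPO11, ISC10, MER1 and the chitin deacetylase genes CDA1 and CDA2 were lower at less than 100 on the Ssa3 array. After subtraction of the neighbours 3 of the 9 stayed below 0.5.

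Amino acid and nitrogen genes were mixed, 5 of 43 above 2-fold and 6 below 0.5. LEU2 (YCL018W), the marker that the plasmid carries in all strains, read 3229 on the Ssa3 array, 1451 on Ssa2 and 5006 on Ssa4, against 999 on Ssa1, so its signal can include the plasmid copy. CHA1, which breaks down serine and threonine, read 3164 on the Ssa3 array, 2433 on Ssa2 and 2795 on Ssa4, against 1014 on Ssa1. PUT2, of proline breakdown, read 267 on the Ssa3 array, 87.0 on Ssa2 and 108 on Ssa4, against 93.5 on Ssa1, and stood apart above the other 3 arrays. NTA1, an amidase of the N-end rule pathway, read 92.9 on the Ssa3 array, 42.1 on Ssa2 and 42.3 on Ssa4, against 43.6 on Ssa1, also apart, and MUP3 was higher with less than 100 on an array. Lower was ASI3, of a ubiquitin ligase of the inner nuclear membrane that restrains amino acid permease genes, with 169 on the Ssa3 array, 534 on Ssa2 and 723 on Ssa4, against 502 on Ssa1. LEU3, the regulator of branched-chain amino acid synthesis, read 104 on the Ssa3 array, 258 on Ssa2 and 278 on Ssa4, against 236 on Ssa1. VBA4, a vacuolar permease relative, read 111 on the Ssa3 array, 281 on Ssa2 and 231 on Ssa4, against 273 on Ssa1. ASI3, LEU3 and VBA4 stood apart below the other 3 arrays, with neighbours between -0.71 and -0.53. ILV3 had a ratio of 0.479 with neighbours at -0.05, and SER2 was lower at 27.1 on the Ssa3 array. After subtraction 3 of the 5 higher and 3 of the 6 lower genes stayed past 2-fold, with no neighbour value for LEU2 and NTA1.

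For transcription by RNA polymerases I and III, ribosomal proteins and ribosome assembly, 7 of 59 were above 2-fold, 6 below 0.5 and 46 within the limits, with a median ratio of 0.920. RPL27A (YHR010W) and RPL27B (YDR471W) are near-identical copies of 1 ribosomal protein gene that may share signal. RPL27A read 6120.4 on the Ssa3 array, 4218 on Ssa2 and 6094 on Ssa4, against 2203 on Ssa1. RPL27B read 992 on the Ssa3 array, 980.0 on Ssa2 and 2123 on Ssa4, against 325 on Ssa1, and in both the Ssa1 array was the lowest. RPC31, a subunit of RNA polymerase III, read 1817 on the Ssa3 array, 864 on Ssa2 and 3197 on Ssa4, against 844 on Ssa1. RPP0, of the ribosomal stalk, read 2899.6 on the Ssa3 array, 2051 on Ssa2 and 896 on Ssa4, against 1398 on Ssa1. RKM3, ARX1 and RPC11 were higher at less than 100 on the Ssa1 array. Lower was RET1, the second-largest subunit of polymerase III, with 279.8 on the Ssa3 array, 503 on Ssa2 and 471 on Ssa4, against 580.3 on Ssa1. RPO26, shared by the nuclear polymerases, read 189.7 on the Ssa3 array, 391 on Ssa2 and 216 on Ssa4, against 389 on Ssa1, where Ssa4 lay close to Ssa3. SPB1, an rRNA methyltransferase, read 118 on the Ssa3 array, 284 on Ssa2 and 247 on Ssa4, against 265 on Ssa1, apart from the other arrays. POP1, of RNase P, read 51.8 on the Ssa3 array, 263 on Ssa2 and 193 on Ssa4, against 281 on Ssa1. EFG1, of rRNA maturation, read 55.0 on the Ssa3 array, 143 on Ssa2 and 122 on Ssa4, against 122 on Ssa1. SQT1, a chaperone of a ribosomal protein, read 62.8 on the Ssa3 array, 161 on Ssa2 and 127 on Ssa4, against 156 on Ssa1. POP1, EFG1 and SQT1 stood apart at less than 100 on the Ssa3 array. After subtraction 3 of the 7 higher genes (RPL27A, RPL27B and RPC31) and 1 of the 6 lower ones (POP1) stayed past 2-fold.

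The cell cycle, spindle and chromosome list had 11 of 43 named genes below 0.5 and 4 above 2-fold. UBP10 (YNL186W), a ubiquitin protease of silent chromatin, read 467 on the Ssa3 array, 1767 on Ssa2 and 1702 on Ssa4, against 1646 on Ssa1. MIF2, the centromere protein of the CENP-C family, had the lowest ratio of all members, 0.0790, with 9.46 on the Ssa3 array, 134 on Ssa2 and 135 on Ssa4, against 119.8 on Ssa1. Both stood apart, UBP10 with neighbours at -0.81 and MIF2 with neighbours at -0.50. The study's RT-qPCR put both within 2-fold of Ssa1 in Ssa3 cells. SWP82, of a chromatin remodelling complex, read 27.8 on the Ssa3 array, 77.0 on Ssa2 and 57.8 on Ssa4, against 102 on Ssa1. RFC3, of the clamp loader, read 177 on the Ssa3 array, 457 on Ssa2 and 293 on Ssa4, against 397 on Ssa1. EST1, of telomerase, read 151 on the Ssa3 array, 267 on Ssa2 and 263 on Ssa4, against 321 on Ssa1, and in these the Ssa3 array was the lowest. YHP1, HCM1, YCG1, PAC1 and KAR3 were lower at less than 100. Higher was GIC2, an effector of Cdc42, with 438 on the Ssa3 array, 496 on Ssa2 and 147 on Ssa4, against 124 on Ssa1. NUM1, the cortical anchor of dynein, read 344 on the Ssa3 array, 214 on Ssa2 and 108 on Ssa4, against 151 on Ssa1. NAP1, a histone chaperone, read 825 on the Ssa3 array, 644 on Ssa2 and 563 on Ssa4, against 368 on Ssa1. GIC2 and NAP1 had neighbours at 0.95 and 0.89 and ratios of 1.84 and 1.21 after subtraction. The cyclin gene CLN1 was higher with 41.7 on the Ssa3 array and 12.8 on the Ssa1 array, with neighbours at 1.80. The neighbours of the lower genes of the list had a median log2 ratio of -0.57, and after subtraction 4 of the 11 (MIF2, DOT5, SWP82 and UBP10) stayed below 0.5 and 1 of the 4 higher ones, NUM1, above 2-fold.

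Outside the lists were 39 higher and 42 lower members. VMA13 (YPR036W), subunit H of the vacuolar proton pump, had the highest ratio at 100 or more on both arrays, 8.02, with 1563 on the Ssa3 array, 1156 on Ssa2 and 1158 on Ssa4, against 195 on Ssa1. ATG8, the ubiquitin-like protein that coats autophagosomes, read 1799.7 on the Ssa3 array, 2089 on Ssa2 and 3194 on Ssa4, against 312 on Ssa1. In both genes the Ssa1 array was the lowest of the 4, far below the rest, and the features near VMA13 had a median log2 ratio of 0.82. The loci of VMA13 and CLN1 stand in another of the study's tables with other array values, so their names are less certain than the rest. There the array ratio of VMA13 shows no rise in Ssa3 cells, and that of CLN1 a smaller rise than here. The study's RT-qPCR put both genes lower in Ssa3 than in Ssa1 cells, and ATG8 slightly lower. PAL2 (YHR097C), listed as of unknown function in the study's gene table, had 1224 on the Ssa3 array, 263 on Ssa2 and 362 on Ssa4, against 233 on Ssa1. Its ratio of 5.26 was the highest among bright genes that stood apart. YDL218W, also of unknown function, read 2917 on the Ssa3 array, 1226 on Ssa2 and 3204 on Ssa4, against 705 on Ssa1. EGO4 (2.64), NAT2 (2.60), MRX21 (2.50), YMR114C (2.42), YMR090W (2.15), VPS71 (2.11), YLR297W (2.06), URA10 (2.03), the retrotransposon YDR261C-D (2.01) and MCH2 (2.00) made up the rest of the 19 with at least 100 on both arrays, besides 5 loci of uncertain name. At those loci, YFL002W (2.78), YML100W (2.54), YKL138C (2.41), YNL194C (2.06) and YKR075C (2.01), the table's description is that of another reading frame than the locus tag's, so which gene was measured is not settled. The same holds for the dimmer YNL277W (3.38). YNL194C read 1416 on the Ssa3 array, 481 on Ssa2 and 540.5 on Ssa4, against 689 on Ssa1, and stood apart. YFL002W read 679 on the Ssa3 array, 574 on Ssa2 and 378 on Ssa4, against 244 on Ssa1.

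The 20 unlisted higher members with less than 100 on an array ran from GRE1, YGL108C and YBL113C near 2-fold to REV1, a translesion polymerase, with 152 on the Ssa3 array, 163 on Ssa2 and 175 on Ssa4, against 33.8 on Ssa1. CCR4, of the main mRNA deadenylase complex, read 118 on the Ssa3 array, 51.7 on Ssa2 and 41.6 on Ssa4, against 43.4 on Ssa1, and stood apart, but with neighbours at 0.97 its ratio after subtraction was 1.39. GFD2, YCL042W and YBL113C also stood apart. GFD2 read 81.8 on the Ssa3 array, 25.4 on Ssa2 and 30.9 on Ssa4, against 34.9 on Ssa1. The others in this group were PUS6, RNY1, YLR108C, AIM33, SPP41, YDL085C-A, NMD5, DPC29, YNR014W, FCY21, SAP4 and YFL051C.

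**Figure D3:**
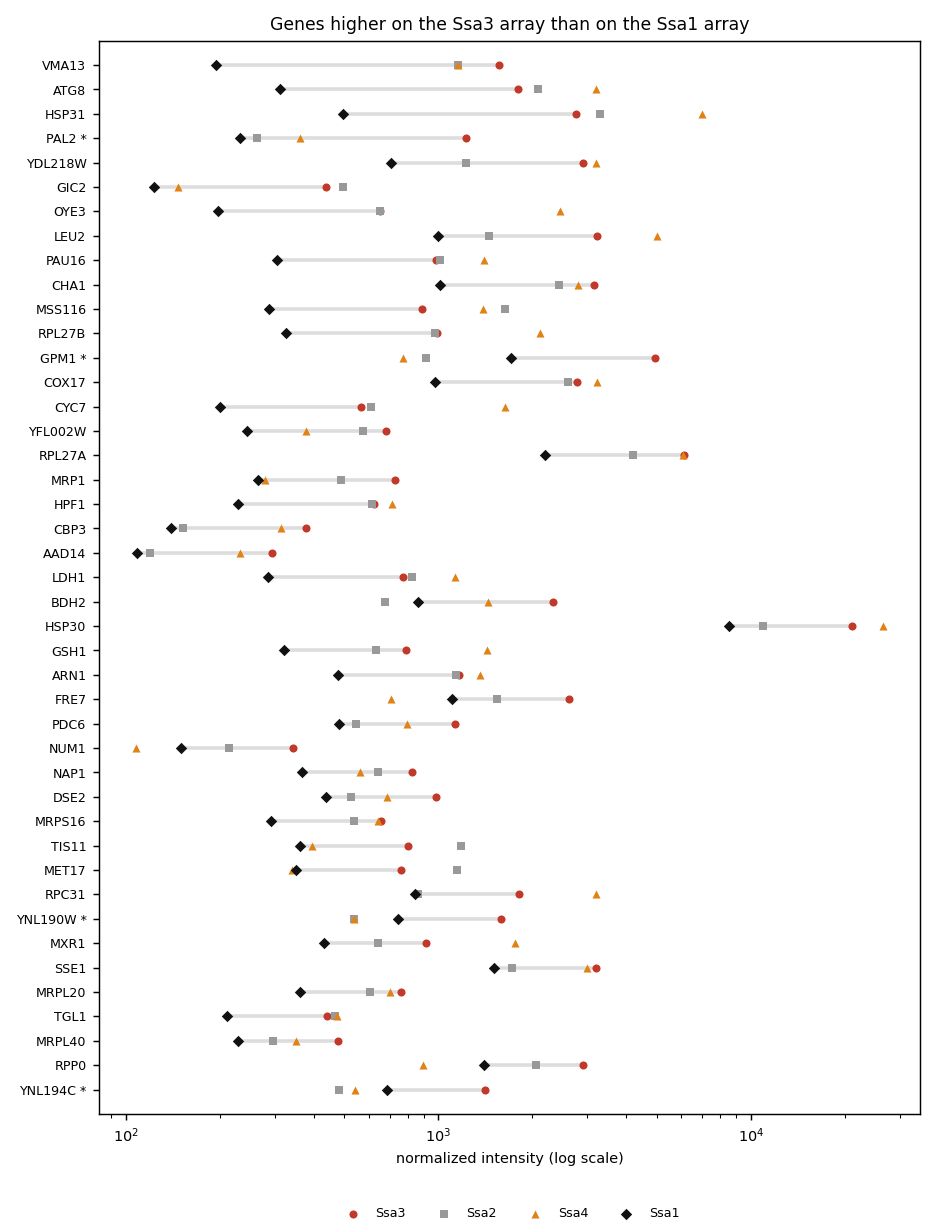
Normalized intensity (log axis) on the Ssa3, Ssa2, Ssa4 and Ssa1 arrays for 43 named genes above 2-fold with at least 100 on both arrays, with the highest ratio on top and 1 point for each array. Stars mark the 4 genes (PAL2, GPM1, YNL190W and YNL194C) whose Ssa3 value was also above 2-fold against Ssa2 and Ssa4, and the Ssa3 point is the rightmost in 22 of the 43 rows.

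Of the 13 unlisted lower members with at least 100 on both arrays, MNC1 (YBR056W-A) had the lowest ratio, 0.351, with 115 on the Ssa3 array, 375 on Ssa2 and 121 on Ssa4, against 329 on Ssa1. YAR068W, a gene of unknown function, read 931 on the Ssa3 array, 4752 on Ssa2 and 435 on Ssa4, against 2572 on Ssa1. The acetyltransferase gene AYT1 read 144 on the Ssa3 array, 205 on Ssa2 and 216 on Ssa4, against 379.9 on Ssa1. NDC1, of the nuclear pore membrane ring, read 162 on the Ssa3 array, 497 on Ssa2 and 389 on Ssa4, against 394 on Ssa1. YOR238W, of unknown function, read 273 on the Ssa3 array, 586 on Ssa2 and 644 on Ssa4, against 561 on Ssa1. NDC1 and YOR238W stood apart, with neighbours at -0.43 and -0.45. The others were WRS1 (0.402), VLD1 (0.413), YBR242W (0.430), the acid phosphatase gene PHO5 (0.435), the calcium channel gene CCH1 (0.436), YER039C-A (0.436), DFP3 (0.439) and YER186C (0.491). YER039C-A, whose locus tag is that of HVG1 with a suffix, was also highest on the Ssa1 array, with 103 on the Ssa3 array, 40.6 on Ssa2 and 35.6 on Ssa4, against 236 on Ssa1. The 29 dimmer unlisted members included CAF16, with 33.3 on the Ssa3 array, 155 on Ssa2 and 124 on Ssa4, against 147 on Ssa1. BOR1, a borate transporter, read 12.3 on the Ssa3 array, 29.4 on Ssa2 and 34.1 on Ssa4, against 29.6 on Ssa1. MED11, of the Mediator complex, read 69.3 on the Ssa3 array, 164 on Ssa2 and 144 on Ssa4, against 142 on Ssa1. FOL3, dihydrofolate synthetase, read 92.2 on the Ssa3 array, 241 on Ssa2 and 232 on Ssa4, against 197 on Ssa1. These stood apart, as did PPR1 and YLR363W-A. PPR1, the activator of pyrimidine synthesis genes, read 73.5 on the Ssa3 array, 165 on Ssa2 and 178 on Ssa4, against 161 on Ssa1. YLR363W-A read 92.3 on the Ssa3 array, 263 on Ssa2 and 221 on Ssa4, against 210.4 on Ssa1. ADE4, the first enzyme of purine synthesis, had a ratio of 0.341.

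**Figure D4:**
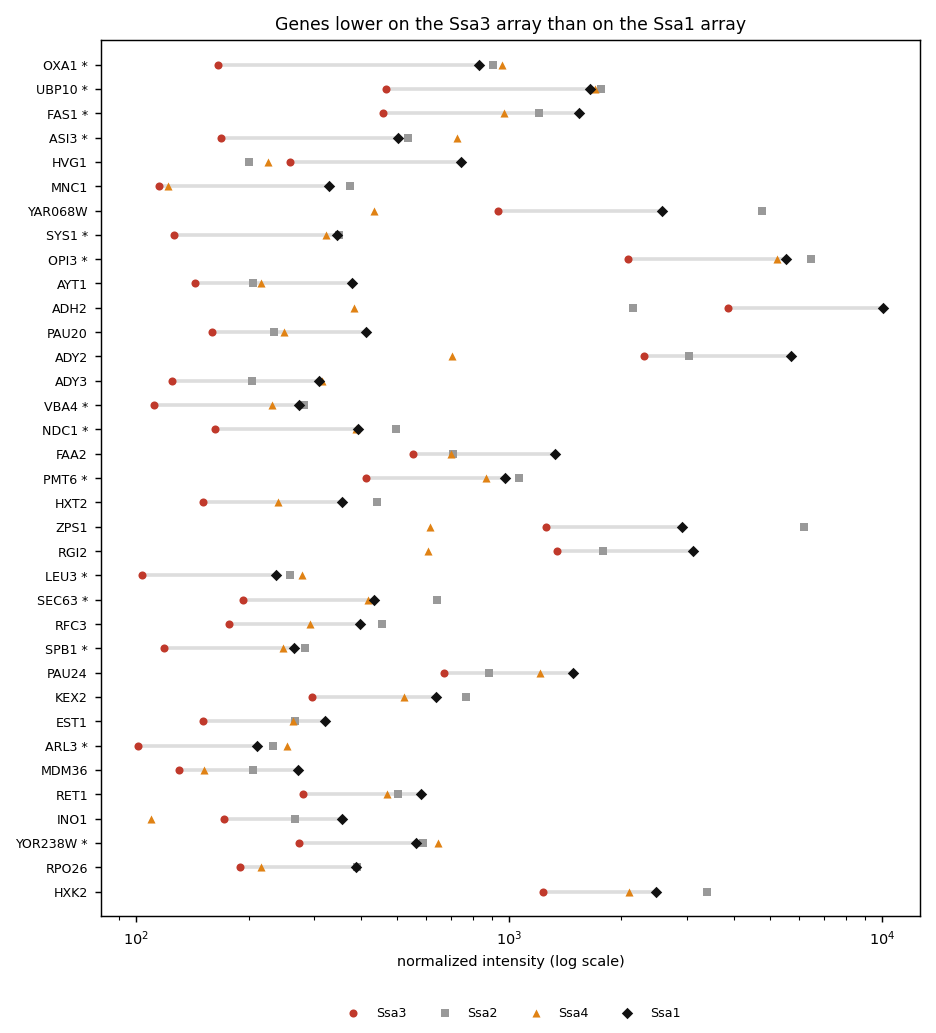
Normalized intensity (log axis) on the Ssa3, Ssa2, Ssa4 and Ssa1 arrays for 35 named genes below 0.5 with at least 100 on both arrays, with the lowest ratio on top and 1 point for each array. Stars mark genes whose Ssa3 value was below 0.5 of each other array, such as OXA1 and UBP10, and the Ssa3 point is the leftmost in 28 of the 35 rows, ADH2 and HVG1 not among them.

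Against all other arrays, and not Ssa1 alone, the Ssa3 array was above 2-fold at 14 features (0.243% of the 5771 with 4 values) and below 0.5 at 32 (0.554%). All of them had a name. Of the 14, 4 had at least 100 on both the Ssa3 and Ssa1 arrays (PAL2, GPM1, YNL190W and YNL194C), and HXT7, PUT2, CCR4, YCL042W, GFD2, NTA1, CTS1, YBL113C, USA1 and IMA1 had less on at least 1. Of the 32, 15 had at least 100 on both, among them OXA1, UBP10, FAS1, ASI3, SYS1, OPI3 and PMT6. The comparisons share the Ssa3 array, so a spot that read high or low on that slide alone would be in these counts.

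Neighbouring features had ratios in the direction of the members more often than features at large, above all beside the lower members. Of 109 lower members with a neighbour value, 66 (60.6%) had neighbours with a median log2 ratio below -0.3, as had 12.4% of all features. Of 120 higher members, 42 (35.0%) had neighbours above 0.3, as had 12.4% of all features. Among the 32 that stood apart below all arrays, 30 had neighbours below -0.3. With the neighbour median subtracted, 39 of these 109 lower and 70 of these 120 higher members stayed past 2-fold. At 100 or more on both arrays, 19 of 49 lower and 43 of 73 higher members did, with 1 in each direction that had no neighbour value. PAL2 (3.98), GPM1 (2.86), HXT7 (3.12), PUT2 (2.32) and YNL194C (2.05) were among those that stayed above 2-fold, and OXA1, UBP10, SYS1, DOT5, POP1, PIK1 and MIF2 among those that stayed below 0.5, whereas FAS1, OPI3, SEC63, PMT6, ASI3 and LEU3 did not. The part of position on the slide in these ratios was not tested.

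**Figure D5:**
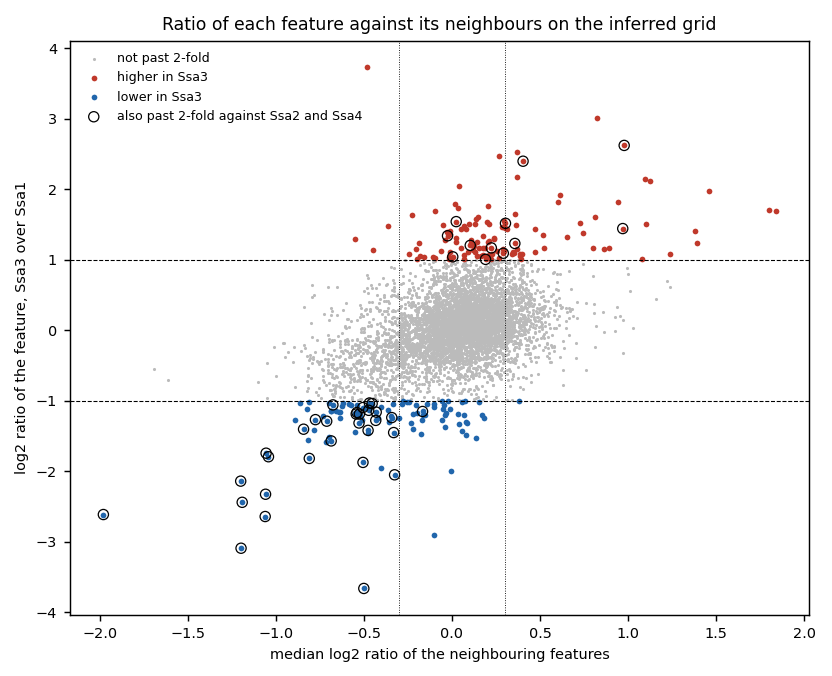
Log2 ratio of each feature, Ssa3 over Ssa1 (vertical axis), against the median log2 ratio of its neighbours on the grid inferred from the feature names (horizontal axis). Red points are above 2-fold, blue points below 0.5, and rings mark features past 2-fold against all other arrays, and all rings drawn on the lower side but 1 (EFG1) lie left of -0.3, the left dotted line.

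Low intensity touched many members. Of the 126 higher members, 53 had less than 100 on at least 1 of both arrays, with ratios from 2.01 to 13.3, and of the 112 lower members 63 did, with ratios from 0.0790 to 0.499. With 50 added to every value, 63 of the 126 and 38 of the 112 were still past 2-fold.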

How the data were processed

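Cy5-labelled amplified RNA of each strain was hybridized to a spotted oligonucleotide array (3D-Gene, Toray), 1 array per strain, without replicates. To obtain the deposited intensity values the authors read every spot as its median foreground, dropped spots not above the blank-spot background, removed the mean of that background and scaled all arrays to a common median. The scale is linear, nothing was renormalized, and the number of arrays limits the precision. Features without a value, 14 on the Ssa3 array and 8 on the Ssa1 array, were left out.

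Ratios of the Ssa3 array to the Ssa1 array were taken without an offset or a filter, and a feature was a member above 2 or below 0.5. Names came from matching all 4 values, within a relative 1e-05, to the study's gene table. All 956 rows matched exactly 1 feature, and 0 matched with the columns shifted by 1 place. Of the 947 names, 936 are in the RefSeq R64 table, used for names only. All 4 values are given for members of at least 100 on both arrays with a ratio of at least 2.7 or at most 0.4, for those past 2-fold against all other arrays, and for up to 4 leading members of each of 16 functional lists in each direction. Others appear by ratio or name. Of the lower members, 1 is counted but not reported here. The members, the lists and the neighbour positions were chosen with earlier results of these data known. A feature had a neighbour value where at least 3 of its 6 neighbours had a ratio. On simulated arrays the counting recovered 200 of 200 planted changes and made 0 false calls among 5771 features, a check of the counting alone. As alternatives, arrays were set to equal medians or quantile-normalized, a lowess trend (fraction 0.4) or the neighbour median was taken off, 50 was added to each value, the limit was set at 3-fold, 100 was required on either array, missing values became the array's lowest, and the other 3 arrays' median replaced Ssa1. A limit of 1.5-fold against Ssa2 and Ssa4 was added after the data were seen. Promoter and protein sequences were not used here. The software was Python (3.11.15), numpy (2.4.6), pandas (2.3.3), statsmodels (0.14.6) and matplotlib (3.10.9).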

Additional observations from a re-analysis of the deposited data

Results flagged for a closer look

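Among the named members, and leaving out SSA2, which is disrupted in both strains and carried by the Ssa2 strain, 6 were past 2-fold against Ssa1 in one direction in Ssa3 cells and past it in the opposite direction in Ssa2 or Ssa4 cells. With 1 array per strain the difference between strains was not tested, and the ratios share the Ssa1 array. GPM1, phosphoglycerate mutase, had a ratio of 2.91 in Ssa3 cells and was lower than Ssa1 in Ssa2 and Ssa4 cells, with 4959 on the Ssa3 array, 916 on Ssa2 and 772 on Ssa4, against 1706 on Ssa1. YCL042W had a ratio of 2.25, with 186 on the Ssa3 array, 36.3 on Ssa2 and 18.9 on Ssa4, against 83.0 on Ssa1. GRE1, a hydrophilin of stressed cells, had a ratio of 2.23, with 30.6 on the Ssa3 array, 6.63 on Ssa2 and 16.8 on Ssa4, against 13.7 on Ssa1. YBL113C, in a telomeric Y' element of many copies, had a ratio of 2.01, with 15.4 on the Ssa3 array, 4.84 on Ssa2 and 3.70 on Ssa4, against 7.68 on Ssa1. PMU1, a putative phosphomutase, had a ratio of 0.450, with 85.6 on the Ssa3 array, 395 on Ssa2 and 157 on Ssa4, against 190.1 on Ssa1. ZPS1, a zinc-regulated wall protein, had a ratio of 0.434, with 1258 on the Ssa3 array, 6161 on Ssa2 and 615 on Ssa4, against 2900.0 on Ssa1. GPM1 and ZPS1 had at least 100 on all arrays, and the neighbours of ZPS1 and PMU1 had median log2 ratios of -0.52 and -0.69 in Ssa3 cells.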

How the results depend on the processing

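Of 52 counts under alternatives, 35 were within 1.5 times the count reported and 17 were not. With a 3-fold limit 26 features were higher and 16 lower, 12 and 4 of them with at least 100 on both arrays, and 1 and 8 stood above and below all other arrays. With an offset of 50 there were 64 higher and 38 lower features, 27 lower ones with at least 100 on both arrays, and 4 above and 14 below all others. A limit of 100 on at least 1 array left 8 above all others. Subtraction of the neighbour median gave 74 lower features, and 9 below all others. With the median of the other 3 arrays as reference, 42 features of at least 100 were above 2-fold. At 1.5-fold against Ssa2 and Ssa4, chosen after seeing the data, 27 were above and 58 below. By construction a stricter limit, a required intensity or an added offset cannot raise a count, and a looser limit cannot lower it. For the other settings the cause was not tested.

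Of the 105 genes given with all 4 values, 20 (11 higher and 9 lower) stayed past 2-fold in their direction under each alternative that could be calculated for them. Among these were HXT7, PAL2, YDL218W, GPM1, MRP1, CBP3, FRE7 and PDC6 above, and OXA1, UBP10, SYS1 and MIF2 below. The study also measured some members by RT-qPCR in the same strains. By that measure HXT7, UBP10 and MIF2 were within 2-fold of Ssa1 in Ssa3 cells. So were GPI8, ATG8, HSP31, MSS116, HXT1, VMA13 and CLN1. Of these, ATG8, HXT1, VMA13 and CLN1 were below Ssa1 by RT-qPCR though above it on the array, and MSS116 was level with Ssa1. MRPL6, OYE3, YNR014W and ADH2 were past 2-fold in the direction of the array. MRPL6 was only just past it by RT-qPCR, against an array ratio of 13.3. With the median of the other 3 arrays as reference the ratio crossed 1 for ATG8 (0.861), HSP31 (0.837), PAU16 (0.974), MSS116 (0.640), CYC7 (0.934), LDH1 (0.938), TGL1 (0.944), ADH2 (1.80) and HVG1 (1.15), and with the neighbour median subtracted it did for PAU16 (0.900). No paired analysis was possible because each strain has 1 array. The limits are the single array per strain, names known for 16.3% of the features, and intensities under 100 for 53 higher and 63 lower members.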

Other observations

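Apart from the named members, 3 features without a name were above 2-fold in Ssa3 cells and 0 were below 0.5. The brightest read 652 on the Ssa3 array, 246 on Ssa2 and 328 on Ssa4, against 323 on Ssa1, a ratio of 2.02 beside neighbours at a median log2 ratio of -0.02. Another read 176 on the Ssa3 array, 114 on Ssa2 and 67.3 on Ssa4, against 46.6 on Ssa1. The last read 4.02 on the Ssa3 array and 1.85 on the Ssa1 array.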
